A study of Mus musculus with 6 samples.

Results

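The scaffolds of the excitatory postsynapse and the α and β subunits of calcium/calmodulin-dependent protein kinase II (CaMKII) were examined in the mouse hippocampus after bilateral carotid artery stenosis (BCAS). The genes were Dlg2, Dlg4, Shank1, Shank2, Shank3, Homer1, Dlgap1, Camk2a and Camk2b. They were found by their symbols, each of which matched 1 Ensembl gene, and they made up 9 of the 54752 genes in the count tables. All 9 passed the filter on low counts, which kept 18617 genes for testing.

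RNA-seq was performed on total RNA of the entire right hippocampus of 6 wild-type male mice, labelled C57BL/6 and given as C57BL/6 J in the methods, with 1 library per mouse. The 3 BCAS mice had microcoils placed around the left and the right common carotid artery, which lowers blood flow to the brain, and the coil on the right artery was the narrower one. The 3 sham mice (Sham) had the same surgery without coils. All 6 libraries were labelled with a time of 14 weeks, read here as age, and the tissue was taken 3 weeks after surgery from mice that had survived it. The comparison asks how chronic hypoperfusion on the more constricted side changes hippocampal transcripts.

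At an excitatory synapse, the postsynaptic density is a protein mesh under the membrane that holds glutamate receptors opposite the release site. Dlg proteins bind the receptors, Dlgap proteins link Dlg to Shank, and Shank is tied by Homer to group I metabotropic receptors and to the actin of the spine. CaMKII, which calcium entry through NMDA receptors activates, is among the most abundant proteins of this mesh and is required for long-term potentiation at hippocampal CA1 synapses.

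The windows around the annotated transcription starts are shown because most of the genes moved in the same direction. RefSeq promoter sequences (build GRCm38.p6, 250 bases before to 50 bases after a start) were at hand for 6 of the 9 genes, with 12 windows in all. Short motifs were searched on the forward and the reverse strand: the core of the cAMP response element TGACGT, the GC box GGGCGG, the E-box CACGTG and the TATA box TATAAA. The 3 windows with the most matches are printed in the direction of transcription, and capitals mark TGACGT or GGGCGG on either strand, where neighbouring matches may overlap. They lay at chr13:93303507-93303806 (plus strand) for Homer1, chr11:6065699-6065998 (minus strand) for Camk2b and chr15:89499358-89499657 (plus strand) for Shank3.
Homer1: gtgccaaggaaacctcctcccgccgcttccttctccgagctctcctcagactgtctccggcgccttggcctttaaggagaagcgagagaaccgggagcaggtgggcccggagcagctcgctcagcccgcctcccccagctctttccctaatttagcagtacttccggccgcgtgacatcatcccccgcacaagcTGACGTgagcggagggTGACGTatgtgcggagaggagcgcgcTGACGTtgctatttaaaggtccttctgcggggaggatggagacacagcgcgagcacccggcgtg
Camk2b: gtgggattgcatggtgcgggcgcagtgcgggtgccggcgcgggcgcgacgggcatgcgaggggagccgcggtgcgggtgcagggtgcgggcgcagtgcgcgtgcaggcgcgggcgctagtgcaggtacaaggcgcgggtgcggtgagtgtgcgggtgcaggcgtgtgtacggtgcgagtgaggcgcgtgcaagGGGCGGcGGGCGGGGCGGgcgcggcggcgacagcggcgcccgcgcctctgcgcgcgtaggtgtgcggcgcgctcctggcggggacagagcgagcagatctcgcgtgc
Shank3: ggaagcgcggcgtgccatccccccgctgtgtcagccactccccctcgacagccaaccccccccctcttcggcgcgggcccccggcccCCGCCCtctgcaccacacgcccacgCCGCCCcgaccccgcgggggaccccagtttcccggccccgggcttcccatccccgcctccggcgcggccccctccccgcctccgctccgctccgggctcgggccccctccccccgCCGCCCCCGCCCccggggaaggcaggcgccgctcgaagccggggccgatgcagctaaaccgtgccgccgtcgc

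The Homer1 window held 3 copies of TGACGT and was the only 1 of the 12 windows with this motif, which 7.51% of all 32851 promoter windows in the table held. The GC box was found in 3 of the 12 windows, with 3 matches at Camk2b, 4 at Shank3 and 2 at a start of Dlg4, against 35.7% of all windows. The E-box was present in 1 window of Dlgap1 (7.15% of all windows) and TATAAA in 1 window of Dlg2 (13.6% of all windows). No motif was shared by most of the windows, and a match in these letters is a description of the sequence.

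The sham libraries held 34301711 to 35607098 counts and the BCAS libraries 29652456 to 31892083, and mitochondrial genes took 6.90% to 6.99% of the counts in sham and 6.02% to 6.56% in BCAS mice. Neither range overlapped between the groups, so both moved with the falls described here. Without mitochondrial genes, and with counts thinned to the smallest total, 8 of the 9 genes were called lower, as in the test with all counts. Choroid plexus RNA varied widely between the libraries of both groups. Ttr, which encodes transthyretin and is abundant in choroid plexus, was at 882, 3773 and 38.0 CPM in Sham 1 to 3. In BCAS 1 to 3 it was at 5461, 23.7 and 2930 CPM. The 4 choroid plexus markers had a median log2 fold change of 1.01 and none was called, so a group difference was not resolved. CPM are counts scaled by the TMM-corrected total of each library. Summed markers of the hippocampal fields were present in every library, at 338 to 806 CPM for CA1 pyramidal cells, 96.4 to 201 CPM for CA3 pyramidal cells and 207 to 430 CPM for dentate granule cells, and several of them were lower in BCAS mice.

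Of the 9 genes, 8 were lower in BCAS than in sham mice at an adjusted P under 0.05 (edgeR quasi-likelihood test, adjusted by Benjamini and Hochberg over all tested genes), and none was higher. Over all tested genes, 13.2% were called lower and 18.0% higher. The number of calls among the 9 genes was 4 without Sham 1 or Sham 2, 5 without Sham 3 and 5 when libraries were scaled by their totals, and no log2 fold change turned positive. The 9 log2 fold changes had a median of -0.56, with the largest fall at Homer1 (-0.82) and the smallest at Shank2 (-0.25), and the median over all tested genes was 0.018. The largest fall was at Camk2b (-0.92) when BCAS 1 was left out. For 8 genes every BCAS library was below every sham library, which held for 22.7% of all tested genes. No log2 fold change passed 1 in size, so 0 of the 9 genes met the DEG thresholds of the study, which 0.999% of tested genes met in the lower direction. DESeq2 and limma-voom also gave 0 of 9. The genes together took 0.692% of all counts in sham mice (SD 0.0249, n = 3) and 0.471% in BCAS mice (SD 0.0775, n = 3).

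**Figure D1:**
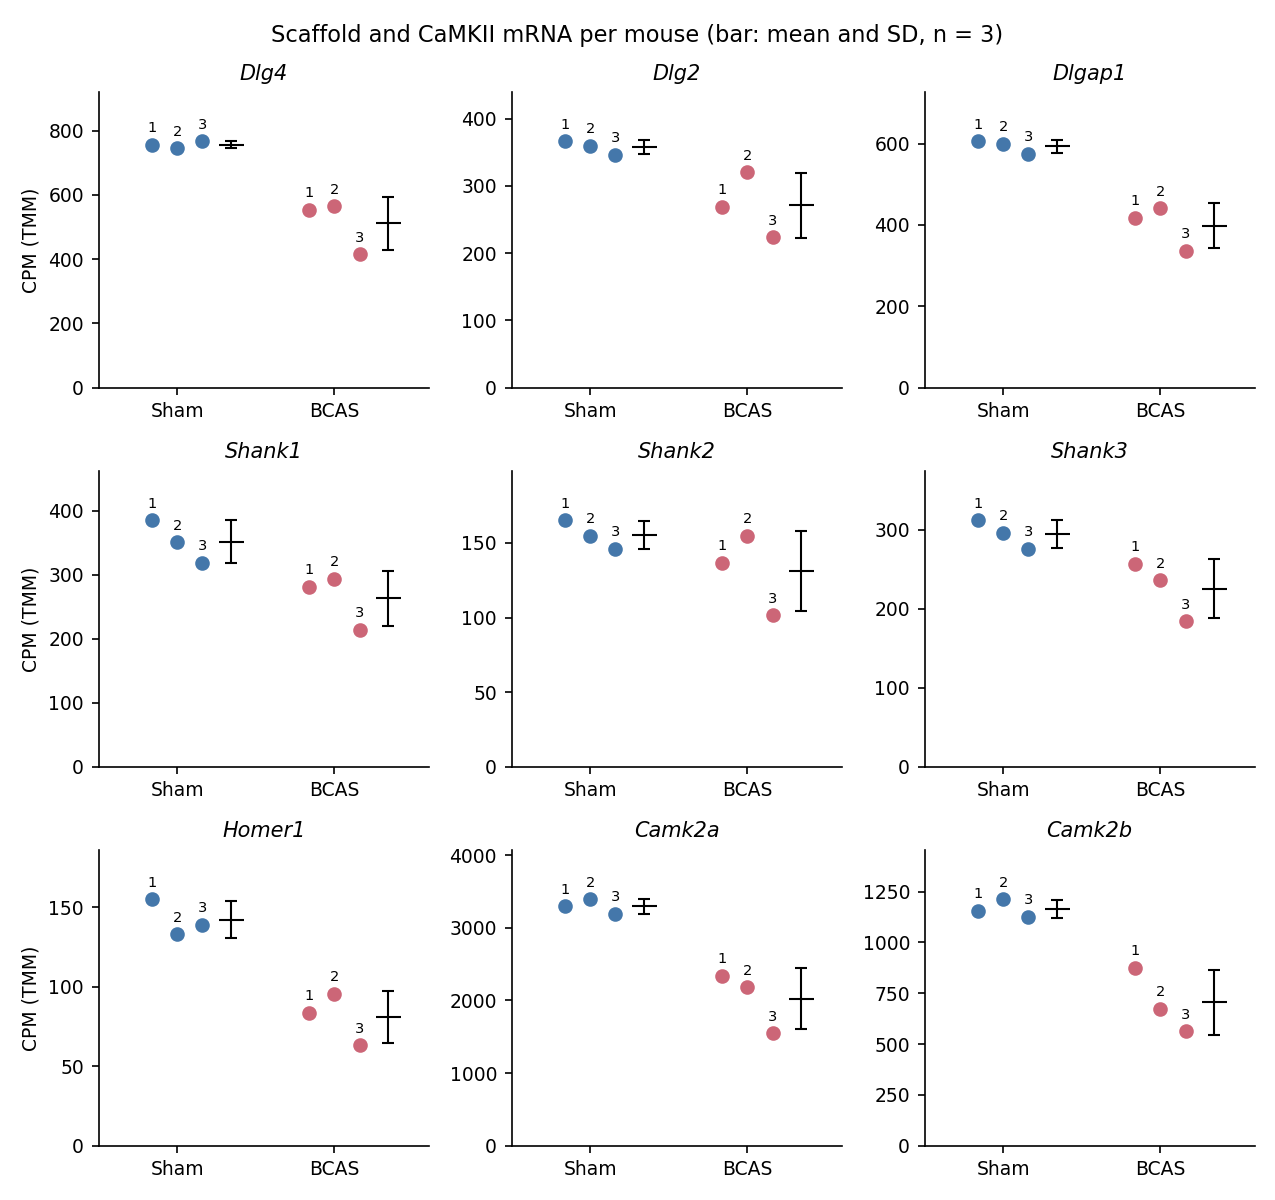
Normalized expression (CPM, y axis from 0) of the 9 genes in each sham and BCAS mouse, numbered by replicate, with the group mean and SD (n = 3) beside the points. BCAS 3 is the lowest library in every panel, and the groups overlap only for Shank2.

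In bulk tissue, fewer neurons, less RNA per neuron and more RNA from other cells cannot be told apart. This applies to each value that follows. From stained sections, the paper reports neuronal loss in CA1 and the dentate gyrus and atrophy of the right hippocampus after BCAS. The part of that loss in these values was not tested. BCAS mouse 3 was the lowest of the 6 libraries for all 9 genes. The spread was also wider in BCAS than in sham mice: the coefficient of variation ran from 1.48% (Dlg4) to 9.42% (Shank1) in sham mice and from 13.8% (Dlgap1) to 22.5% (Camk2b) in BCAS mice.

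Dlg4 encodes PSD-95, the main scaffold that anchors NMDA receptors and AMPA receptor complexes, and lies at chr11:70016942-70047522 (mm10, plus strand). It was measured at 755, 744 and 767 CPM in Sham 1 to 3 and at 554, 564 and 415 CPM in BCAS 1 to 3. The sham mice lay within a narrow band and all 3 BCAS mice below it. Dlg4 fell by 0.56 on the log2 scale (SE 0.13, adjusted P = 0.0102, edgeR), to 67.7% of the sham level.

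Dlg2, a membrane-associated guanylate kinase closely related to PSD-95, spans chr7:90476672-92449247 (mm10, plus strand). Its levels were 366, 360 and 346 CPM in sham mice and 269, 321 and 224 CPM in BCAS mice. BCAS 2 was close under the lowest sham mouse and the other BCAS mice were well below it. Dlg2 fell by 0.40 on the log2 scale (SE 0.12, adjusted P = 0.0378, edgeR). This call was lost on leaving out libraries: the adjusted P was 0.0586 to 0.112 when any library other than BCAS 2 was left out (Sham 1, Sham 2, Sham 3, BCAS 1 or BCAS 3), and 0.0562 when libraries were scaled by their totals alone.

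Dlgap1 encodes the linker between the Dlg and Shank layers (chr17:69969073-70821413, mm10, plus strand). It was at 606, 600 and 574 CPM in sham mice and at 418, 441 and 337 CPM in BCAS mice. The groups were clearly apart, and BCAS 2 was the highest of its group. Dlgap1 fell by 0.57 on the log2 scale (SE 0.11, adjusted P = 0.00556, edgeR) and kept its call when any 1 library was left out.

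The Shank genes encode the deeper layer of the density, which joins Dlgap to Homer and to actin. Shank1 (chr7:44310253-44360572, mm10, plus strand) was at 385, 351 and 319 CPM in sham mice and at 281, 294 and 214 CPM in BCAS mice, without overlap. It fell by 0.42 on the log2 scale (SE 0.13, adjusted P = 0.0367, edgeR). The call was lost without Sham 1 (adjusted P = 0.130), Sham 2 (0.0925), Sham 3 (0.0539), BCAS 1 (0.0503) or BCAS 3 (0.0528), and with library totals (0.0578).

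Shank3, whose loss in humans is a cause of Phelan-McDermid syndrome, lies at chr15:89499623-89560261 (mm10, plus strand). Sham mice had 312, 297 and 276 CPM and BCAS mice 257, 236 and 184 CPM. The gap between the lowest sham mouse and BCAS 1 was small. Shank3 fell by 0.39 on the log2 scale (SE 0.12, adjusted P = 0.0408, edgeR), and the adjusted P was 0.131, 0.105 and 0.0726 without Sham 1, Sham 2 and Sham 3 and 0.0674 with library totals.

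Shank2 (chr7:144001928-144424494, mm10, plus strand) was the exception among the 9 genes. Its levels were 165, 155 and 146 CPM in sham mice and 137, 155 and 102 CPM in BCAS mice. BCAS 2 lay inside the sham range and BCAS 3 far below it. The log2 fold change was -0.25 (SE 0.14, 95% interval -0.56 to 0.07, adjusted P = 0.214, edgeR), so a fall as large as that of Shank1 or Shank3 was within its interval. The estimate was -0.39 without BCAS 2 (adjusted P = 0.0385, edgeR) and -0.096 without BCAS 3 (adjusted P = 0.479).

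Homer1 encodes the adaptor that binds Shank and group I metabotropic glutamate receptors (chr13:93299635-93405129, mm10, plus strand). Its short, activity-induced form and its long, constitutive forms are counted as 1 gene here and were not separated. Homer1 was at 155, 133 and 139 CPM in sham mice and at 83.6, 95.5 and 63.2 CPM in BCAS mice. Even the highest BCAS mouse was well under the lowest sham mouse. Homer1 fell by 0.82 on the log2 scale (SE 0.14, adjusted P = 0.00281, edgeR), to 56.7% of the sham level, the largest fall of the 9 genes. Its call held when any 1 library was left out, but without BCAS 1 Camk2b fell further (-0.92, against -0.84 for Homer1).

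Camk2a encodes the forebrain-enriched α subunit of CaMKII (chr18:60925618-60988152, mm10, plus strand) and ranked 9 among the 18617 tested genes by sham CPM. It was at 3294, 3391 and 3191 CPM in sham mice and at 2339, 2178 and 1547 CPM in BCAS mice. All BCAS mice were far below the sham mice, and BCAS 3 was lower again. Camk2a fell by 0.70 on the log2 scale (SE 0.17, adjusted P = 0.0148, edgeR), with an adjusted P of 0.0586 without Sham 1 and 0.0512 without Sham 2.

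Camk2b encodes the β subunit, which also binds actin in spines (chr11:5969644-6066362, mm10, minus strand). Sham mice had 1157, 1212 and 1125 CPM and BCAS mice 876, 674 and 563 CPM. The groups were apart, and here BCAS 1 stood highest of its group. Camk2b fell by 0.73 on the log2 scale (SE 0.16, adjusted P = 0.00885, edgeR), to 60.5% of the sham level.

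**Figure D2:**
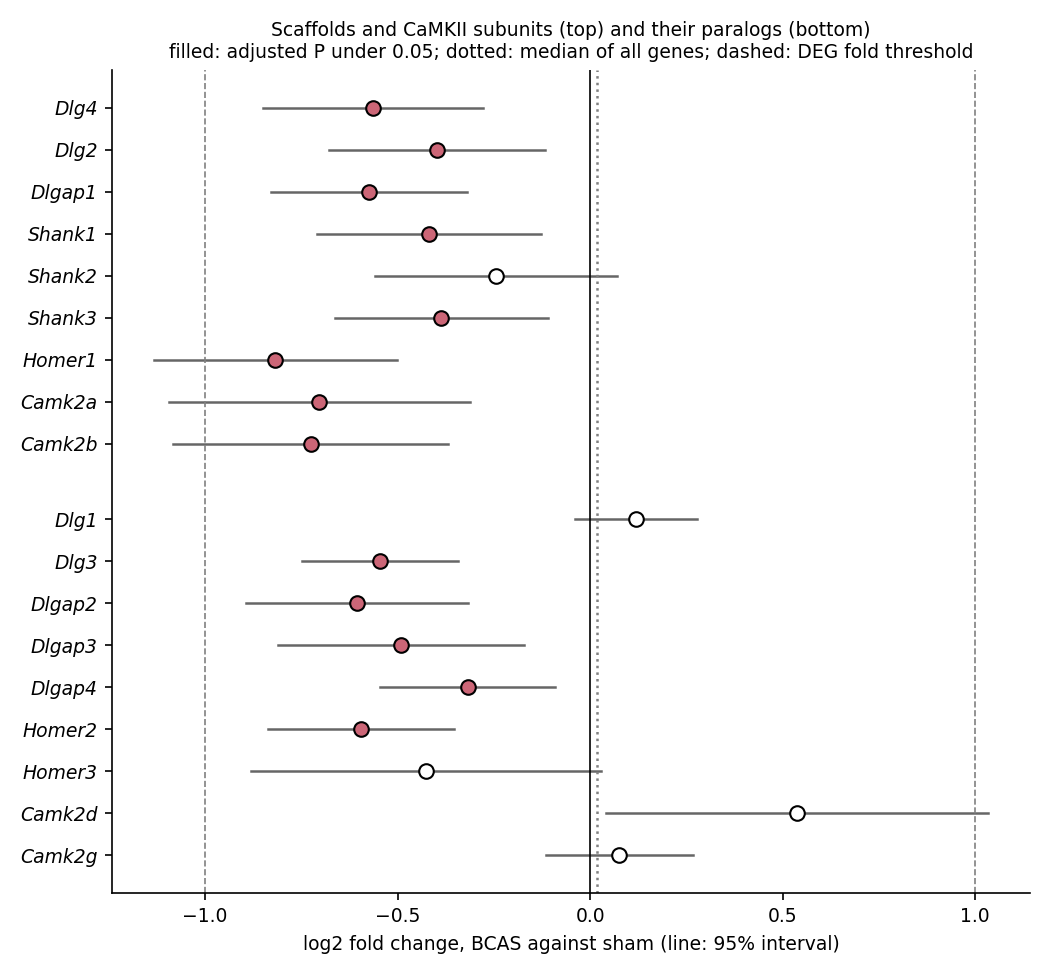
Log2 fold change (BCAS against sham, x axis) with its 95% interval for the 9 genes and for other genes of the Dlg, Dlgap, Homer and CaMKII families. Filled points passed an adjusted P of 0.05, the dotted line is the median of all tested genes (0.018) and dashed lines mark the DEG fold threshold of 1. The 9 genes lie between -0.82 and -0.25, while Dlg1, Camk2d and Camk2g have estimates above 0.

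Levels of different genes were compared as CPM per kilobase of exon. In sham mice Camk2a (441 ± 13.4, SD, n = 3) was the most abundant and Camk2b followed (128 ± 4.82). Dlg4 (57.0 ± 0.843) led the scaffolds. Shank1 (33.4 ± 3.15), Dlgap1 (33.2 ± 0.925) and Shank3 (32.1 ± 1.96) came next, with overlapping libraries, so their order was not resolved. Dlg2 (22.0 ± 0.636), Shank2 (14.4 ± 0.893) and Homer1 (11.9 ± 0.955) were lower, each apart from the next. In BCAS mice the means per kilobase kept this order except that Shank3 (24.6 ± 4.08) was above Dlgap1 (22.3 ± 3.07), and the libraries of these genes overlapped there too.

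Within a mouse, the ratio of members of a pair does not depend on the scaling between libraries. A total of 7 pairs were compared with an exact two-sided permutation test of 3 against 3 mice, which cannot go below P = 0.1. The Camk2a to Camk2b ratio per kilobase was 3.48, 3.42 and 3.47 in sham mice and 3.26, 3.95 and 3.36 in BCAS mice. These ranges overlapped, and BCAS 2 alone was above the sham mice. The log2 ratio differed by 0.023 between the groups (exact permutation P = 1).

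The Homer1 to Dlg4 ratio was 0.227, 0.198 and 0.200 in sham mice and 0.167, 0.187 and 0.168 in BCAS mice. It was lower in all BCAS mice, with a log2 difference of -0.26 (exact permutation P = 0.1, the smallest possible, adjusted P = 0.175 over 7 pairs). The same P was reached by Dlg4 to Dlg2 (difference -0.16), Shank1 to Shank2 (-0.16) and Shank2 to Shank3 (0.13), whose groups did not overlap. The difference of Shank2 to Shank3 was 0.041 without BCAS 2, whose ratio of 0.559 stood above the 0.454 and 0.471 of the other BCAS mice and the 0.445 to 0.451 of the sham mice. Shank1 to Shank3 (-0.029) and Dlgap1 to Dlg4 (-0.0061) overlapped between the groups.

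**Figure D3:**
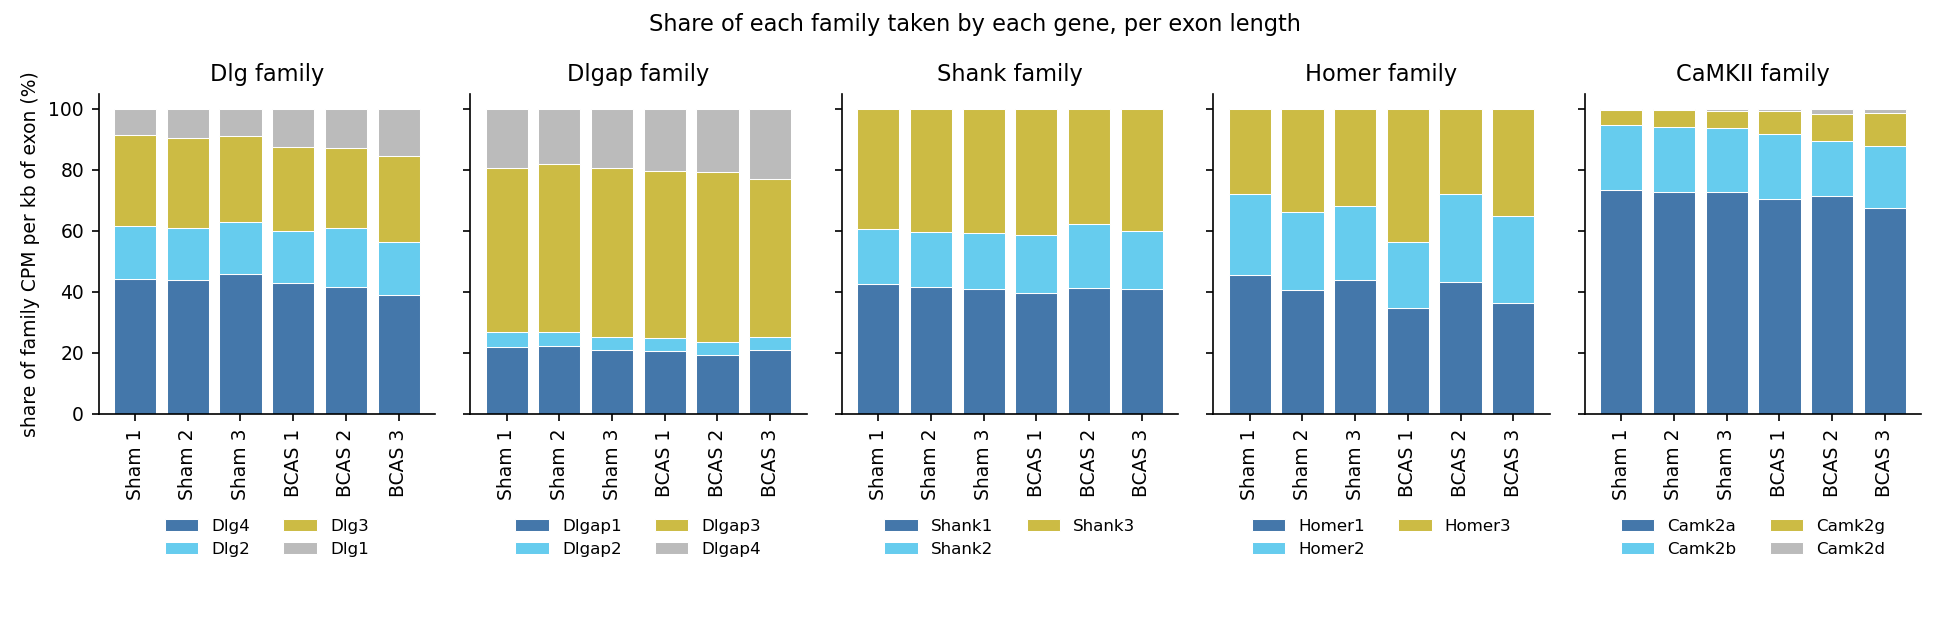
Share of each gene family's summed CPM per kilobase of exon (y axis, %) taken by each gene in each of the 6 libraries. Camk2a takes 72.7% to 73.4% of the CaMKII family in the sham group, against 67.6% to 71.4% after BCAS, and Camk2g and Camk2d take more in every BCAS library than in any sham library.

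The other CaMKII subunits had no call. Camk2d and Camk2g encode the δ and γ subunits, which are expressed in many cell types besides neurons. Camk2g was at 190, 222 and 205 CPM in sham mice and at 210, 230 and 211 CPM in BCAS mice (log2 fold change 0.076, adjusted P = 0.532, edgeR). Camk2d was at 69.0, 74.9 and 93.0 CPM in sham mice and at 79.8, 157 and 107 CPM in BCAS mice (log2 fold change 0.54, adjusted P = 0.0940, edgeR). Their groups overlapped in level. As a share of the family per kilobase, Camk2a held 73.0% (SD 0.412, n = 3) in the sham group and 69.8% (SD 1.97, n = 3) in the BCAS group, and Camk2g 5.32% (SD 0.326, n = 3) and 8.96% (SD 1.70, n = 3). For Camk2a and for Camk2g these shares did not overlap between the groups, whereas those of Camk2b did (21.1% and 19.9% on average).

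In the Dlg family, Dlg1, which encodes SAP97 and is found in epithelia and glia as well as neurons, was at 121, 132 and 123 CPM in sham mice and at 132, 141 and 134 CPM in BCAS mice (log2 fold change 0.12, adjusted P = 0.231, edgeR). Its mean share of the family was 9.13% in the sham and 13.7% in the BCAS group, without overlap, and that of Dlg4 was 44.6% and 41.2%, also without overlap. The share of Dlg2 was 17.2% in sham and 17.8% in BCAS mice, with overlap. Of the 7 paralogs of the scaffolds, 5 were called lower and 0 higher: Dlgap2 (-0.61), Homer2 (-0.60), Dlg3 (-0.55), Dlgap3 (-0.49) and Dlgap4 (-0.32), each a log2 fold change. Homer3 had an estimate of -0.43 and was not called (adjusted P = 0.140, edgeR). The Homer family shares overlapped between the groups for all 3 genes, and Homer1 was at 34.8% to 45.5% in the 6 libraries.

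The partners of the 9 genes were described by 8 further lists of postsynaptic and activity-regulated genes, 98 genes in all, from the same edgeR fit. Of these 98 genes 72 were called lower, 1 higher and 25 neither. Of the 78 genes in the 6 lists of the excitatory postsynapse, 57 were lower and 0 higher.

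**Figure D4:**
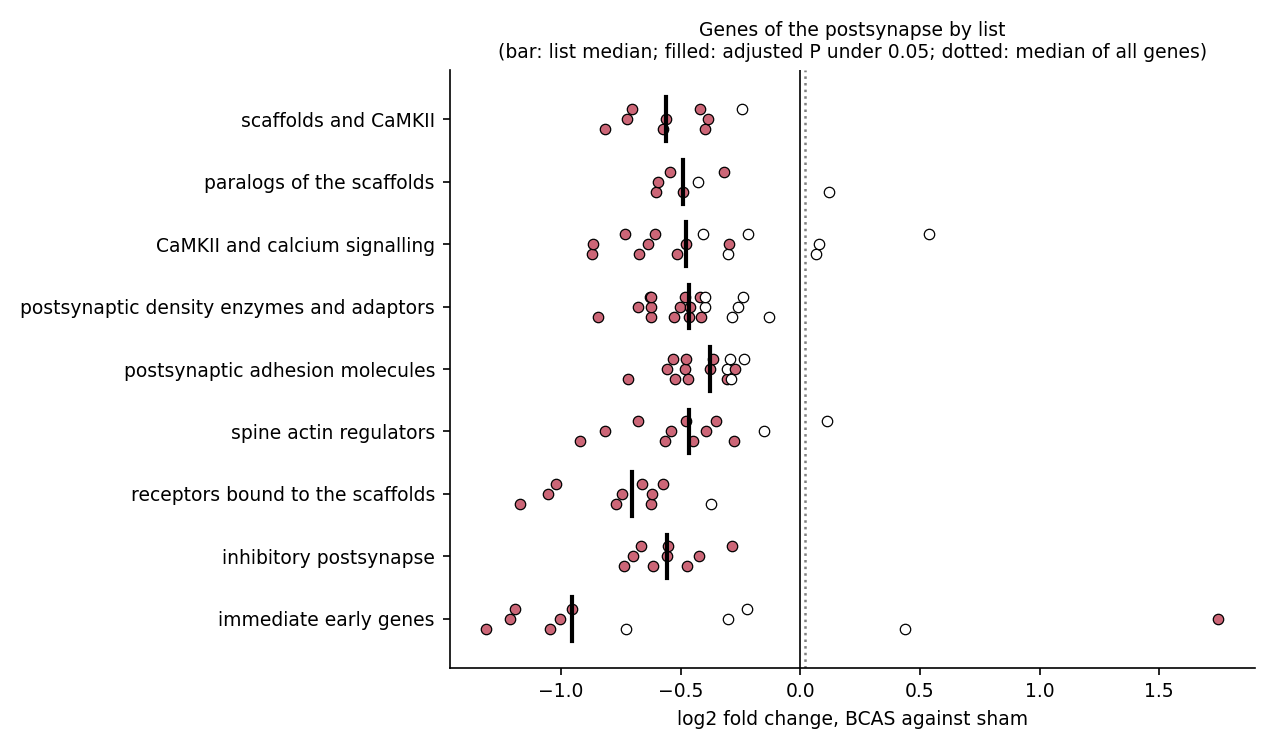
Log2 fold changes (BCAS against sham, x axis) of the 9 genes and of 8 lists of related genes, with the median of each list as a bar and genes at an adjusted P under 0.05 filled. Almost all points lie left of 0, the receptors have a median of -0.70 and the scaffolds and CaMKII of -0.56.

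Of 10 glutamate receptor and auxiliary subunits that the scaffolds hold, 9 were called lower and 0 higher (median log2 fold change -0.70, from -1.17 to -0.37). Grin2a, an NMDA receptor subunit, went from 292 ± 31.9 CPM (SD, n = 3) to 130 ± 29.8 CPM and fell by 1.17 on the log2 scale (SE 0.16, adjusted P = 0.000789, edgeR). Gria1, an AMPA receptor subunit, went from 914 ± 60.5 to 440.0 ± 107 CPM and fell by 1.06 on the log2 scale (SE 0.17, adjusted P = 0.0019, edgeR). These and Cacng8, an AMPA receptor auxiliary subunit (-1.02), were the 3 genes of the list that met the DEG thresholds, and Cacng8 is named because the count is small.

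In the list of CaMKII and calcium signalling, 9 of 15 genes were lower and 0 higher (median -0.48). The largest falls were in calcineurin, the calcium-dependent phosphatase that opposes CaMKII at the synapse. Its regulatory subunit gene Ppp3r1 went from 1213 ± 51.2 to 664 ± 118 CPM (log2 fold change -0.87, adjusted P = 0.00227, edgeR) and its catalytic subunit gene Ppp3ca from 1755 ± 38.5 to 962 ± 195 CPM (-0.87, adjusted P = 0.00339). The inhibitor genes Camk2n1 (-0.22) and Camk2n2 (0.066) had no call.

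Of 19 enzymes and adaptors of the density, 13 were lower and 0 higher (median -0.47), led by Cnksr2 (-0.84), a scaffold of Ras signalling, and Anks1b (-0.68), which binds PSD-95. Of 15 adhesion molecules, 11 were lower and 0 higher (median -0.38), led by the neurexin ligands Lrrtm1 (-0.72) and Lrrtm4 (-0.56). Of 12 regulators of spine actin, 10 were lower and 0 higher (median -0.46), led by Wasf1 (-0.92), a subunit of the WAVE complex, and Cap2 (-0.82), a regulator of actin turnover. All 9 listed genes of the inhibitory postsynapse were lower too (median -0.56), among them Shisa7 (-0.70), which binds GABA-A receptors.

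Among 11 immediate early genes, which neurons switch on with activity, 6 were lower and 1 higher (median -0.96). Nptx2, a secreted protein that clusters AMPA receptors, went from 27.8 ± 2.68 to 11.2 ± 2.33 CPM (log2 fold change -1.31, adjusted P = 0.000429, edgeR) and the transcription factor gene Egr4 from 36.6 ± 7.25 to 15.8 ± 3.45 CPM (-1.21, adjusted P = 0.00179). Arc (-1.19), Npas4 (-1.05) and Bdnf, which encodes a growth factor, also met the DEG thresholds in this direction. Egr2 was the gene that rose, from 1.63 ± 0.407 to 5.47 ± 1.16 CPM (log2 fold change 1.75, adjusted P = 0.00135).

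Cell type markers moved with the groups as well, and no marker listed was at 0 in all libraries. Of 12 pan-neuronal markers, 8 were called lower and 0 higher, with a median log2 fold change of -0.57, close to the -0.56 of the 9 genes. Their summed level was 8106 to 8950 CPM in sham mice and 4796 to 6840 CPM in BCAS mice. CA1 pyramidal markers had a median of -1.24 with 4 of 5 called lower (sum 632 to 806 CPM in sham and 338 to 498 CPM in BCAS mice). Of 5 CA3 pyramidal markers 3 were called lower (median -0.61), and of 7 dentate granule markers 3 (median -0.14), with 0 called higher in either list. All 9 microglia markers rose, with a median of 3.01 (sum 343 to 359 CPM in sham and 2241 to 3670 CPM in BCAS mice), and 7 of 8 astrocyte markers rose, with a median of 0.74 (4411 to 4711 and 9429 to 9973 CPM). BCAS 3, the lowest library for the 9 genes, had the lowest pan-neuronal and the highest microglia sum. The part of these shifts in the change of the 9 genes was not tested.

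**Figure D5:**
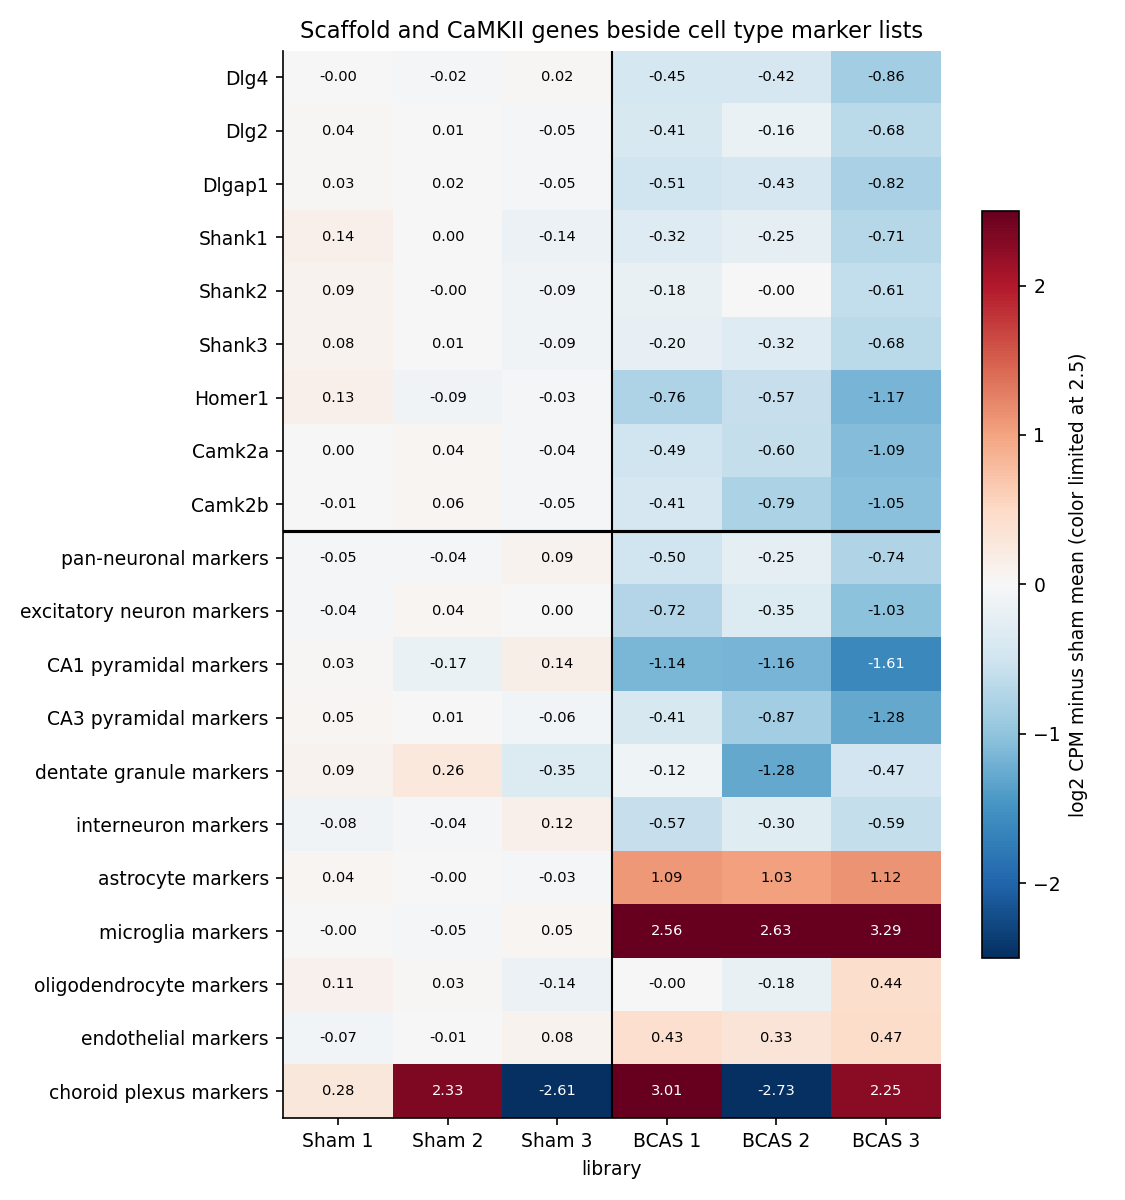
Log2 CPM minus the sham mean in each of the 6 libraries (columns) for the 9 genes and for the mean of each cell type marker list (rows). In BCAS 3 the 9 genes are between -0.61 and -1.17 and the pan-neuronal mean is at -0.74, while the choroid plexus row varies between libraries of either group.

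To place the 9 genes on a neuronal scale, each was expressed in log2 CPM relative to the mean of the 12 pan-neuronal markers in the same mouse. On this scale 8 of the 9 genes overlapped between the groups. The share of all tested genes without overlap on this scale was not computed. With 3 against 3 mice, full separation in either direction has a probability of 0.1 for a gene without a group difference. Homer1 was at -1.59, -1.82 and -1.89 in sham mice and at -2.03, -2.09 and -2.19 in BCAS mice, without overlap, a difference of -0.34 (exact two-sided permutation P = 0.1, the smallest possible, adjusted P = 0.45 over 9 genes). For Camk2b the difference was -0.25, for Camk2a -0.23 and for Shank2 0.23, and the other 5 genes were between -0.084 and 0.10.

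Which genes were without overlap depended on the reference, and the share over all tested genes was not computed for the other references either. Against the 5 excitatory neuron markers, Homer1 was at 0.071, -0.23 and -0.13 in sham mice and at -0.14, -0.32 and -0.23 in BCAS mice, so its groups overlapped and the difference was -0.13. Shank2 (0.44) and Dlg2 (0.29) were instead higher in every BCAS mouse than in any sham mouse (exact two-sided permutation P = 0.1, adjusted P = 0.45 for each). Shank3 (0.30), Shank1 (0.27), Dlg4 (0.13), Dlgap1 (0.12), Camk2a (-0.023) and Camk2b (-0.047) overlapped. Against the median of the 12 pan-neuronal markers, Shank2 (0.35) and Dlg2 (0.21) again stood above without overlap. Homer1 (-0.22), Camk2b (-0.13) and Camk2a (-0.11) overlapped there, as did Shank3 (0.22), Shank1 (0.19), Dlg4 (0.042) and Dlgap1 (0.036). No gene kept its separation from the sham mice under all 3 references. Single libraries moved the values against the pan-neuronal mean too, with Camk2b at -0.42 without BCAS 1 and -0.11 without BCAS 2, Camk2a at -0.34 without BCAS 1, and Shank2 at 0.14 without Sham 3. Dlg2 was at 0.13 without Sham 1 and 0.017 without Sham 3, and Dlgap1 at -0.043 and -0.15. Dlg4 was at -0.14 without BCAS 1 and -0.031 without BCAS 2.

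The 4 choroid plexus markers varied widely within each group. Their log2 fold changes were above 0 (0.64 to 1.32), and none was called. In the libraries of each group with the least of this RNA, Sham 3 and BCAS 2, the log2 CPM of 8 genes was lower in BCAS 2, by values from -0.11 (Dlg2) to -0.74 (Camk2b), and Shank2 was 0.084 higher. With the choroid plexus score as a covariate, chosen after seeing the data, 8 of the 9 genes were again called lower, with a median of -0.55. These values describe the libraries, and the cause of the falls was not tested.

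The genes most like the mean log2 CPM profile of the 9 genes over the 6 libraries, of 10713 candidates with a mean of at least 10 CPM, were Cdkl2 (r = 0.998), Epb41l1 (r = 0.998), Agtpbp1 (r = 0.998), Scn8a (r = 0.998) and Snph (r = 0.997). These correlations are a description over 6 libraries that share the group difference. Scn8a, a neuronal sodium channel, went from 352 to 235 CPM (log2 fold change -0.59), and Snph, which anchors axonal mitochondria, from 455 to 327 CPM (-0.48).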

How the data were processed

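Paired-end RNA-seq libraries of 3 Sham and 3 BCAS hippocampi were grouped by their labels. After read trimming and HISAT2 alignment to mm10, the authors deposited raw counts per gene from featureCounts, without normalization. Per the file headers, featureCounts 2.0.3 with GENCODE M20 counted mates as separate reads and ignored strand, whereas the submitters' processing notes name featureCounts 1.6.3. Totals of 29652456 to 35607098 counts make counting error small at these levels. The BCAS columns carry the numbers 2 to 4 inside the files and are numbered 1 to 3 here, by label. Symbols were matched for 54723 of 54752 genes.

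Genes were kept by filterByExpr, normalized by TMM and tested with edgeR 4.0.16 in R 4.3.3 (quasi-likelihood, no block), and P values were adjusted over 18617 genes. The DEG thresholds, 0.05 for the adjusted P and 1 for the size of the log2 fold change, were those of the study, which used DESeq2. Log2 CPM used a prior count of 2. The steps were tested on simulated data. Samples are 1 per mouse, and the common biological coefficient of variation was 0.161. Exons of Dlg2, Shank1, Shank3 and Dlgap1 overlap other annotated genes over 0.514% to 3.22% of their bases.

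The 9 genes, the lists of related and marker genes and the tests were chosen with earlier results of these data known. Named are the 9 genes, the 2 largest called rises and falls of each list, marker lists as summaries, and the 5 genes most like the mean profile; Ttr, Cacng8, Arc, Npas4, Bdnf and the remaining paralogs and inhibitors fall outside this rule and were named after their values were seen. A gene that this rule names is not reported here. Alternatives were DESeq2 1.42.0, limma-voom (limma 3.58.1), RLE factors, library totals, other filters, halved or thinned counts, no mitochondrial genes, a replicate block, glmTreat, leaving out each library and, added after seeing the data, a choroid plexus covariate.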

Additional observations from a re-analysis of the deposited data

How the results depend on the processing

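Of 162 alternative log2 fold changes of the 9 genes, 0 changed direction, and those of glmTreat repeat the main estimates. DESeq2, limma-voom, RLE factors, both other filters, halved or thinned counts, leaving out mitochondrial genes and the choroid plexus covariate each called 8 of the 9 genes lower. With library totals 5 were called; there the median of all tested genes was 0.095 in place of 0.018. With glmTreat against a log2 fold change of 1, 0 were called, since no estimate passed 1. Leaving out 1 library gave 4 to 9 calls. The count was 4 without Sham 1 or Sham 2, 5 without Sham 3, 6 without BCAS 1 or BCAS 3 and 9 without BCAS 2. The number of related genes called lower was 64 to 79 with all libraries and 50 to 83 with 1 library left out, against 72. This number was not counted for glmTreat, which called 14 of all tested genes lower.

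Sham and BCAS mice with the same label number were treated as unpaired. Their residuals correlated at 0.036, -0.31 and -0.16. The residuals were centred within each group, so the correlations of a library with the other group must nearly cancel. Such correlations cannot decide whether mice were paired. By the numbers inside the BCAS files, read in order, Sham 2 and BCAS 1 gave 0.22 and Sham 3 and BCAS 2 gave 0.35. A block by these numbers was not fitted. With the replicate block 8 of the 9 genes and 68 related genes were called lower, and the calls over all genes were 1750 lower and 2782 higher, against 2463 and 3356.

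Of 56 alternative log2 ratios, 5 changed sign. Those from raw counts and with the replicate block equal the main values by construction and could not change sign. Leaving out 1 library, Dlgap1 to Dlg4 ran from -0.040 to 0.020 (above 0 without Sham 1, Sham 2 or BCAS 1), Shank1 to Shank3 from -0.078 to 0.017 (above 0 without BCAS 1) and Camk2a to Camk2b from -0.061 to 0.076 (below 0 without BCAS 2). Of 81 alternative values relative to neuronal markers, 6 changed sign. With excitatory neuron markers as the reference, Dlg4 gave 0.13 and Dlgap1 0.12, and with the median of the pan-neuronal list 0.042 and 0.036. Leaving out 1 library, Shank1 ran from -0.043 (without Sham 3) to 0.17 and Shank3 from -0.0015 (without BCAS 1) to 0.19. The cause was not tested for any of these.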

Other observations

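Other marker lists gave these values beside the 9 genes. Of 5 excitatory neuron markers 3 were called lower (median log2 fold change -0.69). CA3 pyramidal markers had 3 of 5 called lower (median -0.61), dentate granule markers 3 of 7 (median -0.14) and interneuron markers 5 of 7 (median -0.46). Within the dentate list the summed level was lowest in BCAS 2 (207 CPM) and highest in BCAS 1 (430 CPM). Of 5 endothelial markers 3 were called higher (median 0.41). None of the 7 oligodendrocyte markers was called by edgeR (median 0.13), and their sum was highest in BCAS 3 (8835 CPM, against 5129 to 6477 CPM in the other libraries). None of the 4 choroid plexus markers was called by edgeR (median 1.01).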
